A study of Drosophila melanogaster with 3 samples.

Results

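In the optimal set of Ets97D binding regions, 510 peaks (9.12% of the set) lay in intergenic DNA away from promoters. Their summits were more than 500 bp from every annotated start of a protein-coding transcript and inside no protein-coding transcript. The rest of the set was 840 intronic peaks under the same limit, 4118 promoter peaks and 127 exonic peaks. The study immunoprecipitated chromatin of whole *Drosophila melanogaster* embryos, aged 0 to 24 h and of mixed sex, with an antibody against GFP. The embryos came from a transgenic Delg-GFP line that makes Ets97D with GFP at its C-terminal end. There was 1 group, Ets97D-eGFP, with 3 biological replicates. No genotype or treatment was compared. The protein is tagged, the tissue is the whole embryo, and the labels do not give the promoter that drives the fusion.

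Ets97D, also called Delg, is the fly relative of the DNA-binding subunit of mammalian GABP, a member of the ETS family of transcription factors. ETS proteins bind DNA around the core GGAA, and the GABP type prefers CCGGAA with a following G. Peaks between genes can lie at enhancers, at insulators or at starts of genes that code for no protein. In flies, insulator elements are bound by proteins such as CTCF, Su(Hw) and BEAF-32, each with a DNA sequence of its own. All coordinates are on the dm6 build (Release 6), and sequences were read from the NCBI copy of that assembly.

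A selection of strong intergenic peaks with CCGGAA is shown first because this is the word that ETS factors recognise. Each window reaches 50 bp to either side of the summit and is named by the nearest protein-coding gene, with CCGGAA or its reverse complement in capitals.
CG4702, chr3R:12121324-12121424, plus strand: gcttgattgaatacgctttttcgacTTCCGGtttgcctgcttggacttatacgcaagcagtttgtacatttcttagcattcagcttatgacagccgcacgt
CG34342, chr3L:5512115-5512215, plus strand: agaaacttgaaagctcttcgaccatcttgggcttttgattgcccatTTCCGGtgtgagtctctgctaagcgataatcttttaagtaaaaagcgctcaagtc
jp, chr2L:9567462-9567562, plus strand: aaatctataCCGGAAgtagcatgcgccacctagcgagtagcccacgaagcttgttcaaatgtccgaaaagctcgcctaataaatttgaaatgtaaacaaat
cpo, chr3R:17919183-17919283, plus strand: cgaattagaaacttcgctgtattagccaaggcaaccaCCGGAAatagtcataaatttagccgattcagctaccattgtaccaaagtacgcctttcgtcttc
Gdi, chr2L:9490935-9491035, plus strand: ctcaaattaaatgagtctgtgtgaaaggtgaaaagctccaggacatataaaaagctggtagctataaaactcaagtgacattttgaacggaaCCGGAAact
CG6602, chr3L:6071576-6071676, plus strand: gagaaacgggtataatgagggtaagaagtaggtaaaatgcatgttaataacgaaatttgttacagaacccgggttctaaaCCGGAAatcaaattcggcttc

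The next windows hold GGTGGCGC, the core of the CTCF binding sequence, or its reverse complement, in capitals. They are shown because this word stood out most strongly from the flanking DNA. The jp window appears again because it holds both words.
jp, chr2L:9567462-9567562, plus strand: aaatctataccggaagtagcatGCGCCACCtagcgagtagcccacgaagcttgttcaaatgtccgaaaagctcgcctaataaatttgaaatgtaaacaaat
Cph, chrX:7242059-7242159, plus strand: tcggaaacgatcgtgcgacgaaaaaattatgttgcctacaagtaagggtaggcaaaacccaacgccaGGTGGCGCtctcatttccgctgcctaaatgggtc
Reg-2, chr3L:611815-611915, plus strand: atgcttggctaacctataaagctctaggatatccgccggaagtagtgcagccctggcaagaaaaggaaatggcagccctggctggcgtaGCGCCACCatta
Glyp, chr2L:2130249-2130349, plus strand: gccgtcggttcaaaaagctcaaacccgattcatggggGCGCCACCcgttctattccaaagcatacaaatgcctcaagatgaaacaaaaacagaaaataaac
sbr, chrX:10832541-10832641, plus strand: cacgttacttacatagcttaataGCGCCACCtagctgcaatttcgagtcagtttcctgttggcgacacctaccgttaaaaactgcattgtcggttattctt

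Windows with TGCATAC, part of the binding sequence of the insulator protein Su(Hw), follow with that word or its reverse complement in capitals.
CG45080, chr3R:13320002-13320102, plus strand: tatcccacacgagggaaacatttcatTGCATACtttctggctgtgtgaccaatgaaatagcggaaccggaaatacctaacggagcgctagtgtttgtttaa
Pk34A, chr2L:13158054-13158154, plus strand: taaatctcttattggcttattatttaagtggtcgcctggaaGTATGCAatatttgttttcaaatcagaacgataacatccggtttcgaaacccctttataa
CG34253, chr3L:18088197-18088297, plus strand: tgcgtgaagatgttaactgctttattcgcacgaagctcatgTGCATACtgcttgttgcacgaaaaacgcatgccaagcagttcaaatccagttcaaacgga

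Strong intergenic peaks with none of these exact words are shown for contrast. The sp3 and CG8519 windows do hold GCGCCA, a part of the reverse complement of the CTCF word. The ETS core GGAA or its reverse complement is in capitals.
sp3, chr3R:21520329-21520429, plus strand: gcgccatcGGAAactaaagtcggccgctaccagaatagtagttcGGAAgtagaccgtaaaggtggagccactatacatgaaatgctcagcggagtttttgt
Cpr76Ba, chr3L:19516667-19516767, plus strand: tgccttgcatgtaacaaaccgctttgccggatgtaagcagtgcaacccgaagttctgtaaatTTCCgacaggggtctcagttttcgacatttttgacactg
CG8519, chr3L:6709154-6709254, plus strand: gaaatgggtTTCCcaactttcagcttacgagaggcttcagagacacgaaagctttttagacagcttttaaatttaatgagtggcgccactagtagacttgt

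CCGGAA lay within 50 bp of the summit in 42 of 510 intergenic peaks, which is 8.24% with a 95% Wilson interval of 6.15 to 10.9. In windows of the same width centred 500 bp towards lower coordinates, 11 of the same 510 peaks held it. The adjusted p was 0.000118 (exact McNemar test, two-sided, Benjamini-Hochberg over 16 words). The words of this panel were chosen with earlier results of these data known. No adjusted p over the panel, here or below, covers that choice. The flank was not held to the intergenic rule, so a flank window can lie in a gene or promoter. The summit's distance to the nearest gene edge had a lower quartile of 527.5 bp, and such flanks were not counted. The share of CCGGAA among all optimal peaks was 4.74%, and among promoter peaks 3.62%. The longer forms CCGGAAG and CCGGAAGT lay at 15 and 10 summits and in 0 flanks, with adjusted p of 0.000326 and 0.00781. These forms contain one another and share the same peaks, so they are not separate observations. With a window of 25 bp to either side neither longer form passed the test (adjusted p 0.2 for each), and the longest did not pass with a window of 100 bp to either side (adjusted p 0.0882) or among the 50% of peaks of highest signal (adjusted p 0.0625).

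GGTGGCGC lay at 28 of 510 intergenic summits (5.49%) and in 1 flank, with an adjusted p of 1.79e-06 by the same exact test. Among all optimal peaks the share was 1.14%, and among promoter peaks it was 0.559%. The other 12 words of the panel did not pass the test. TGCATAC lay at 18 summits and in 6 flanks (adjusted p 0.0725). CGATA, the core bound by BEAF-32, lay at 81 summits and in 57 flanks (adjusted p 0.0983). The DRE word TATCGATA lay at 9 intergenic summits and in 2 flanks (adjusted p 0.15). At promoter peaks, DRE was present in 408 of 4118 windows, or 9.91%, against 1.76% of the intergenic windows. Motif 1 (GGTCACAC), another promoter word, lay at 6 intergenic summits and at 318 promoter summits.

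Intergenic and intronic peaks were compared because both lie away from promoters. CCGGAA was present in 8.24% of intergenic and 4.05% of intronic windows, an odds ratio of 2.13 (95% interval 1.30 to 3.50; Fisher's exact test over peaks, adjusted p 0.0119 over 16 words). GGTGGCGC was present in 5.49% and 0.952%, an odds ratio of 6.03 (2.65 to 15.4; adjusted p 2.45e-05). No other word of the panel passed this comparison. The CCGGAA difference did not pass with a window of 25 bp to either side (odds ratio 1.34, adjusted p 0.74) or with a promoter limit of 1000 bp (odds ratio 1.63, adjusted p 0.389). The GGTGGCGC difference did not pass with that narrower window (odds ratio 4.36, adjusted p 0.0676) or among peaks found in the strongest sets of all 3 replicates (odds ratio 3.25, adjusted p 0.0666). Intergenic windows had a median GC content of 39.6%, against 35.6% in intronic and 40.6% in promoter windows, and the part of base composition in these differences was not tested.

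**Figure D1:**
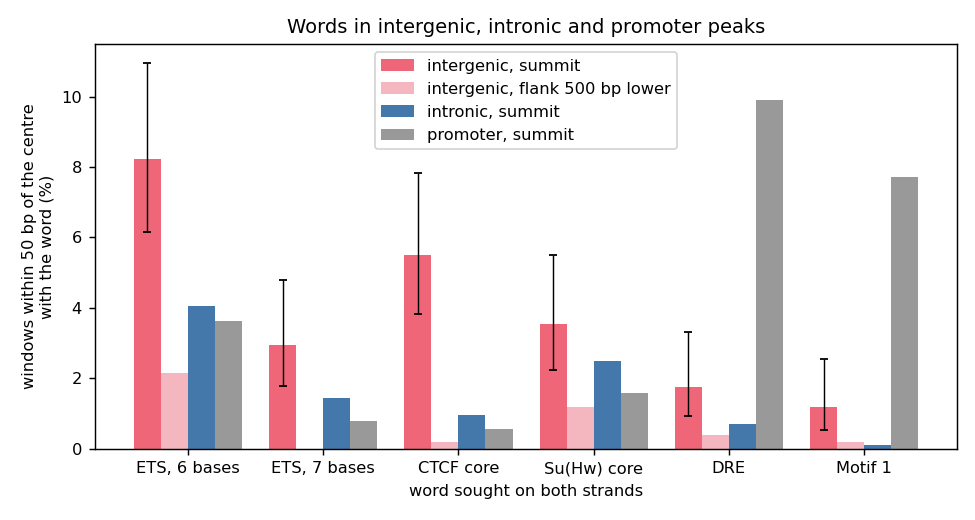
Share of windows reaching 50 bp to either side of the centre (vertical axis, %) that held each of 6 words at intergenic summits, in the intergenic flank, at 840 intronic summits and at 4118 promoter summits. Error bars are 95% Wilson intervals over the 510 intergenic peaks. The 6-base ETS word and the CTCF core word stand above flank and intronic windows, whereas DRE and Motif 1 are highest at promoters.

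The same order was seen in each replicate's own regions. The strongest set of a replicate is its regions of highest signal, as many as the optimal set holds. In these sets, the regions classed as intergenic numbered 501, 457 and 563. CCGGAA was present in 8.38%, 8.75% and 7.28% of these, and in 3.75%, 4.11% and 3.43% of the intronic regions. GGTGGCGC was present in 3.99%, 4.38% and 3.73% of intergenic and in 1.06%, 1.03% and 0.964% of intronic regions. For both words the 3 intergenic shares lay above the 3 intronic shares without overlap. These regions are largely the ones in the pooled set, so they show the spread between replicates and are not an independent set.

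Both words were more frequent within 50 bp of the intergenic summit than beyond 250 bp. Of 165 CCGGAA occurrences within 500 bp of an intergenic summit, 46 were within 50 bp. That is 9.02 occurrences per 100 peaks, against 2.55 per 100 peaks per 100 bp at distances over 250 bp. For GGTGGCGC, 29 of 53 occurrences were within 50 bp, giving 5.69 per 100 peaks against 0.392 beyond 250 bp. The median distance from the summit of the occurrences within 50 bp was 27 bp for CCGGAA and 23.5 bp for GGTGGCGC. The 50 bp limit bounds these medians, so they do not show crowding at the summit itself.

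**Figure D2:**
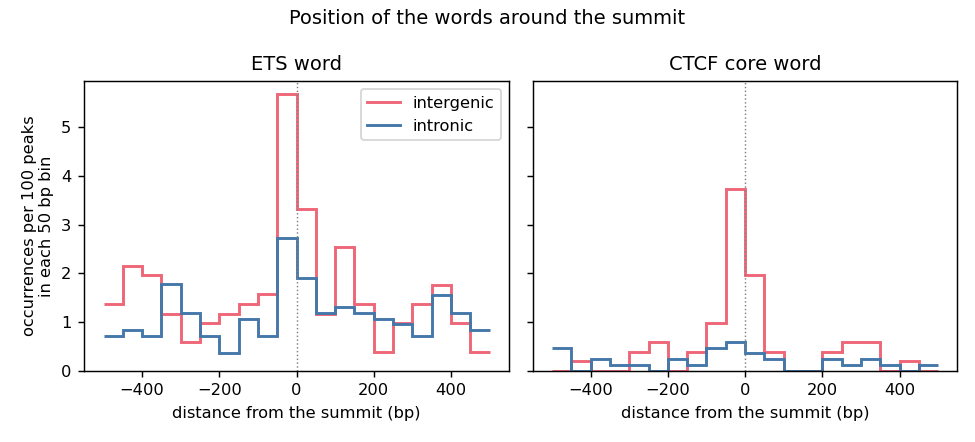
Occurrences of the ETS word CCGGAA and of the CTCF core word per 100 peaks in bins of 50 bp (vertical axis) by distance from the summit in bp (horizontal axis, negative towards lower coordinates), for 510 intergenic and 840 intronic peaks. The highest bin for both words in intergenic peaks adjoins the summit, with 5.69 and 3.73 occurrences per 100 peaks.

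A scan of all 2080 words of 6 bases, each counted with its reverse complement, called 13 at an adjusted p under 0.05 (0.625% of those tested, exact McNemar test). Of these, 11 were more frequent at the summit. The other 2 were less frequent, CAATCG at 7 summits and the related CAATCC at 6. The first was GCGCCA, at 71 summits and in 23 flanks (adjusted p 0.000576). It is part of the reverse complement of the CTCF word, as are the called words CGCCAC, at 57 summits, and GCCACC, at 53 summits. A further pair of called words overlaps the same stretch, CACCTA at 40 summits and AGGTGG at 45. Of the 71 peaks with GCGCCA, 28 held the full CTCF word, 6 held CCGGAA and 42 held neither. The ETS sequence gave CCGGAA itself, then CGGAAG at 41 summits and ACCGGA at 43. Of the 41 peaks with CGGAAG, 22 held neither panel word. AGCACT, at 44 summits and in 11 flanks, is part of no word in the panel, and 38 of its 44 peaks held neither CCGGAA nor GGTGGCGC. The list was completed by GGAAAC, at 53 summits, and by CGCTAG, at 22. In intronic peaks, 97 of the 2080 words were called, 54 of them more frequent at the summit, and 0 were called in both classes. With so few words called, an overlap of 0 does not show that the classes differ. At intronic summits CGGAAG had 4.76% against 2.02% in flanks (adjusted p 0.0539) and ACCGGA 3.21% against 1.19% (adjusted p 0.105, same exact test). CCGGAA was also more frequent there, whereas CGCCAC and GCCACC were less frequent, and none of these was called. With 25 bp to either side 0 words were called in intergenic peaks by the same exact test, although 198 of the 2080 had an unadjusted p under 0.05 at 50 bp, and with 100 bp to either side 40 were called.

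Most intergenic peaks held none of the words. CCGGAA, GGTGGCGC or TGCATAC was present in 77 windows (15.1%) and absent from 433. CCGGAA and GGTGGCGC occurred together in 5 windows, CCGGAA and TGCATAC in 3, and GGTGGCGC and TGCATAC in 3. The bare core GGAA was present in 59.0% of intergenic summit windows and in 52.2% of their flanks. Among all optimal peaks the share of GGAA was 52.7%, and among intronic peaks 53.7%. The core with a preceding C, CGGAA, was present in 22.0% of summits and 14.7% of flanks, and in 18 of the 25 strongest intergenic peaks. Among all optimal peaks the share of CGGAA was 16.7%, and 126 of 840 intronic windows held it.

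Pooled signal, the authors' value per region on a scale that is not stated, ran from 89.1 to 8065 with a median of 139. Intronic peaks had a median of 131, promoter peaks of 173 and all optimal peaks of 162. Of the 100 optimal peaks of highest signal, 16 were intergenic, and of the 1000 of highest signal, 66 were. The intergenic class thus held a small group of very strong peaks above a large group near the lower limit of the set. In the 25 strongest intergenic peaks, CCGGAA was present in 11, GGTGGCGC in 4 and TGCATAC in 2, and 12 held none of these. Peaks with CCGGAA had a median signal of 220, those with GGTGGCGC 144, and those with none of the 3 words 135.

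Signals per replicate are given relative to the median of that replicate's strongest set, so that 1 is the typical strong region. The strongest intergenic peak lay 549 bp upstream of sp3 at chr3R:21520061-21520726, with relative signals of 50.2, 53.9 and 43.4 in replicates 1, 2 and 3. Its rank was 6 among all optimal peaks, and it held none of the 3 words. CCGGAA was present near CG4702 (36.2, 32.3 and 28.8) and near CG34342, 1305 bp upstream of the start (28.2, 29.2 and 28.1). The peak near Cpr76Ba, a cuticle protein gene (33.3, 30.9 and 28.7), held none of the words. Neither did the peak between CG8519 and ple, the tyrosine hydroxylase gene (31.3, 32.7 and 26.4). That summit was 204 bp from the CG8519 edge, in a gap of 4355 bp. In all of these the 3 replicates stood far above 1 and near one another.

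A peak at chr2R:8014090-8014693 lay between CG14762 and Optix, a homeobox gene of eye development, and held both CCGGAA and GGTGGCGC. The summit was 652 bp upstream of the CG14762 start, in a gap of 17527 bp. The relative signals of this peak were 46.0, 47.2 and 39.7, and it ranked 9 of all optimal peaks. Both words were also present in the peak between jp, which encodes junctophilin, and brwl (24.7, 32.2 and 23.8). The peak near Boot on 2R (27.4, 30.7 and 24.7) held GGTGGCGC and lay 69 bp upstream of Uhg4, a non-coding host gene of small nucleolar RNAs. Replicate 2 was the highest at all 3 of these peaks, and no replicate was below 23.8.

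RNA-binding protein genes flanked a pair of the strong peaks with CCGGAA, cpo (couch potato; 22.0, 23.8 and 20.3) 599 bp and msi (musashi; 10.2, 10.2 and 10.4) 600 bp upstream of the start. Another with CCGGAA lay between numb, an inhibitor of Notch signalling, and Gdi, a regulator of Rab GTPases (16.3, 15.1 and 13.4). Its summit was 191 bp from the Gdi edge, in a gap of 26991 bp. CCGGAA with TGCATAC occurred 13616 bp from the nearest start, that of Zasp52, which encodes a protein of muscle Z-discs (13.3, 11.1 and 12.2). That summit was only 119 bp from the nearest gene edge, in a gap of 520 bp between the convergent genes CG30089 and Zasp52. The peak near chn, a zinc-finger gene (12.5, 13.4 and 11.8), held no such word. Over these 5 peaks the relative signals ran from 10.2 to 23.8, and the replicates of each peak stayed near one another.

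Other peaks among the 25 strongest lay near CG6602, CG11349, Cph, CAH5, Slob, croc, CG14853, CG13323, eEF1gamma, CG45080 and tara, with mean relative signals from 3.54 to 11.6. CCGGAA was present near CG6602, croc (a forkhead factor gene) and CG45080, and GGTGGCGC near Cph, 15654 bp from its start but 177 bp from the nearest gene edge. The peak between Su(z)2, a Polycomb-group gene, and CG13323 varied most relative to its mean among these 11, with 3.92, 3.10 and 5.89. Its summit was 9357 bp from the CG13323 edge, in a gap of 36783 bp.

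**Figure D3:**
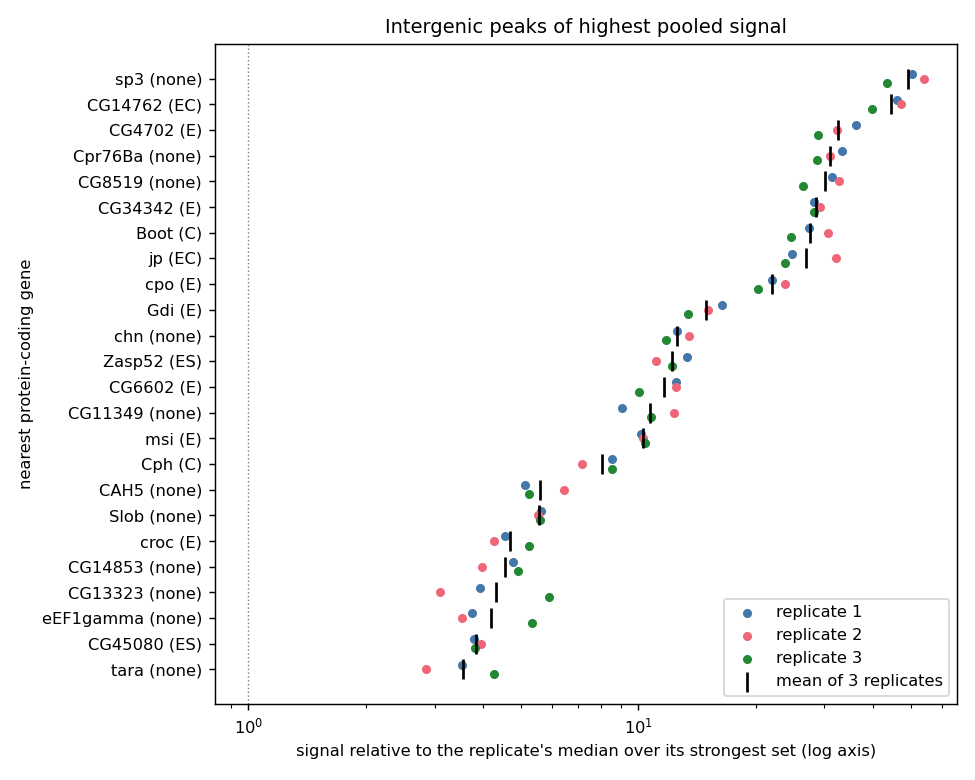
Signal of 24 of the 25 strongest intergenic peaks in each replicate, relative to that replicate's median over its strongest set (horizontal log axis), with the mean of the 3 replicates as a black bar. Rows are named by nearest protein-coding gene, with E for CCGGAA, C for GGTGGCGC and S for TGCATAC. The replicates of a peak lie close together beside the range across peaks, whose means run from 3.54 to 49.2.

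Over all members, 410 of the 510 had a summit of replicate 1's strongest set within 150 bp, 380 of replicate 2's and 451 of replicate 3's. All 3 replicates had one at 300 peaks, which is 58.8% (95% interval 54.5 to 63.0). The same held for 56.3% of intronic, 74.5% of promoter and 70.2% of all optimal peaks. Presence followed signal, with 99.4% of the 170 strongest intergenic peaks, 68.8% of the middle 170 and 8.24% of the weakest 170 present in all 3 sets. This follows in part from the definitions. The optimal set is the pooled regions of highest signal, and each strongest set is cut by signal in the same replicates. Weak members therefore lie near the cut. Only 6 peaks had no such summit in any replicate. In the full lists, which mix peaks and background, 492 of 510 had a summit of every replicate within 150 bp. The intergenic summits of CCGGAA peaks were in all 3 strongest sets in 34 of 42 cases, and those of GGTGGCGC peaks in 14 of 28.

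Median relative signals of intergenic peaks were 0.823, 0.838 and 0.911 in replicates 1, 2 and 3 (mean 0.857 ± 0.0474 SD, n = 3). Intronic peaks had 0.788, 0.780 and 0.887, and promoter peaks 1.09, 1.09 and 1.06. Intergenic minus intronic was 0.0391 ± 0.0174, above 0 in 3 of 3 replicates (exact sign-flip permutation p 0.25, two-sided, the smallest that 3 replicates allow). Intergenic peaks with CCGGAA had medians of 1.38, 1.35 and 1.34, and those without it 0.809, 0.823 and 0.893, a difference of 0.516 ± 0.0612 with the sets not overlapping (exact p 0.25). Peaks with GGTGGCGC had 0.832, 1.03 and 1.02 and those without it 0.823, 0.837 and 0.904. For that word replicate 1 showed a difference of only 0.00931, and the mean difference of 0.108 ± 0.0935 was near its spread.

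Over the 492 peaks matched in all 3 full lists, the median coefficient of variation was 20.8%, with quartiles of 12.4% and 30.9%. Spearman's rho of relative signal across these peaks was 0.682 between replicates 1 and 2, 0.735 between 1 and 3, and 0.691 between 2 and 3, given as a description across peaks that share libraries.

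The distance from the summit to the nearest protein-coding start ran from 501 to 59489 bp, with a median of 2693.5 bp. To the nearest edge of a protein-coding gene, start or end, the lowest distance was 43 bp and the median 1382.5 bp. Among strong members far from a start, the edge was 209 bp away at CG4702, 204 bp at CG8519 and 191 bp at Gdi, but 835 bp at Cpr76Ba. Gaps between the flanking genes had a median length of 10139 bp, against 471.5 bp over 10484 intergenic gaps of the genome. Since a peak could be a member only in a gap long enough to hold it, this difference follows in part from the rule. The summit was upstream of the nearest start in 325 cases (63.7%). A summit downstream of a start could be a member only past the end of the gene, so this share also depends on the rule. Flanking genes were in tandem at 254 peaks (49.8%), divergent at 149 (29.2%) and convergent at 107 (21.0%). The intergenic DNA of the genome that meets the rule was 54.0% tandem, 23.6% divergent and 22.4% convergent. Chromosome 4 held 13 of the 510 peaks (2.55%) and 51 of all optimal peaks (0.912%).

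Median pooled signal changed little with distance, at 144 for peaks 501 to 1000 bp from a start and 139 for the 92 peaks beyond 10000 bp. CCGGAA was present in 13 of the nearer peaks (12.9%, 95% interval 7.68 to 20.8) and in 4 of the farther 92 (4.35%, 1.70 to 10.7), intervals that overlap. GGTGGCGC was present in 11 (10.9%) and 3 (3.26%) of the same peaks, and in 7 of 79 (8.86%) from 5001 to 10000 bp, so its share did not fall steadily with distance. Just inside the 500 bp limit were peaks 501 bp from CG3505 (pooled signal 298), 505 bp from CheB93b (107) and 511 bp from CG43066 (136). Just outside it were peaks 500 bp from Dgat2 (94.0), 497 bp from lectin-28C (134) and 495 bp from MFS18 (89.9). The farthest were 59489 bp from Cyp12e1, 55898 bp from vvl and 51506 bp from Tmtc2, with signals of 113, 99.4 and 94.8, and none of these 3 was in all 3 strongest sets.

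**Figure D4:**
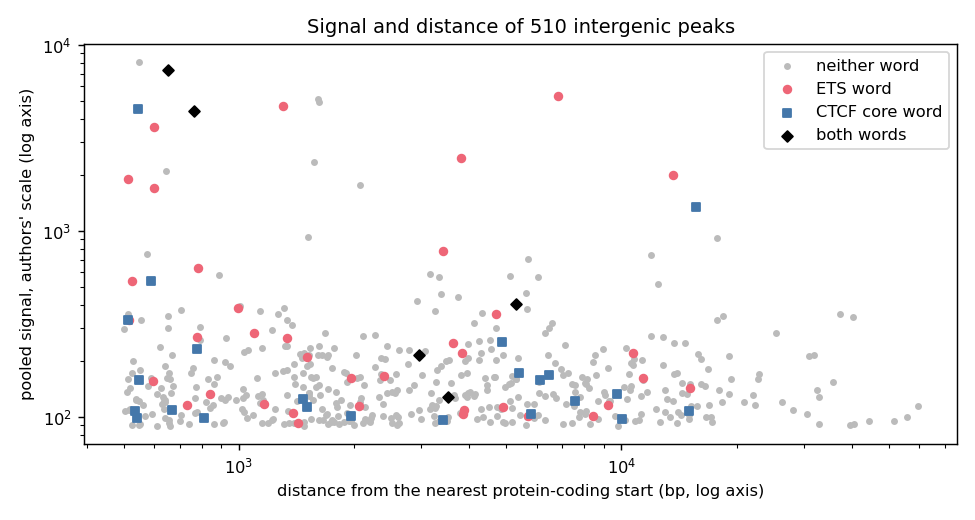
Pooled signal on the authors' scale (vertical log axis) of each of the 510 intergenic peaks against the distance from its summit to the nearest protein-coding start in bp (horizontal log axis), with symbols for peaks that hold the ETS word, the CTCF core word or both. Peaks above a signal of 1000 occur from 513 bp to 15654 bp from a start, and most peaks lie near the lower limit of 89.1 at all distances.

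The 510 peaks had 425 distinct nearest protein-coding genes, 3.04% of the 13968 annotated. Of these 425 genes, 127 (29.9%) also had an optimal peak within 500 bp of a start, against 36.5% of all protein-coding genes. Counted by peak, 151 of the 510 (29.6%) had a nearest gene with such a promoter peak. Nearest genes were shared by several peaks in places, with CG43245 nearest to 6, and Cipc, Ids, chinmo and tara to 4 each. Another optimal summit lay within 1000 bp of 86 members (16.9%) and within 5000 bp of 233 (45.7%). The same shares over all optimal peaks were not computed, so these values describe the members only.

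Genes of embryonic patterning and of mesoderm were present among the nearest genes. Except at slp2, the pooled signals of their peaks were below the members' median of 139. Of 34 patterning genes, 5 were nearest to a member (slp1, slp2, oc, ems and dpp), and of 18 mesoderm and muscle genes 5 were (tup, Doc2, H15, mid and bap), beside the 3.04% of all genes. These counts were not tested, and genes with long intergenic gaps have more room for such peaks. The peak of highest signal among them was between slp1 and slp2, the sloppy-paired forkhead genes of segmentation, with pooled signal 360 and relative signals of 2.22, 1.62 and 2.56. Near oc, the orthodenticle homeobox gene, the stronger of 2 peaks had 0.663, 0.442 and 0.851, and near ems, a head homeobox gene, 0.410, 0.488 and 0.832. The dpp peak, near the gene of a BMP-type ligand, had 0.445, 0.446 and 0.644. All replicates of these last 3 peaks were below 1, and none of them was in all 3 strongest sets.

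In the mesoderm list, relative signals were 0.817, 0.536 and 0.833 at tup, a LIM homeobox gene, and 0.661, 0.715 and 0.927 at the stronger of 2 peaks near Doc2, a T-box gene. Other T-box genes of the list were H15 (0.911, 0.492 and 0.805 at its stronger peak) and mid (0.992, 0.388 and 0.662). All values in the mesoderm peaks named here were below 1. Of 11 Hox and related homeobox genes, Dfd (0.815, 0.709 and 1.18) and Abd-B (0.630, 0.380 and 0.848) were nearest to a member, and the Abd-B peak, 14996 bp from the start, held GGTGGCGC. SoxN, a neural Sox-family gene, was the only one of 21 neural genes, with 0.634, 0.755 and 0.837.

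Of 14 Notch pathway genes, E(spl)m3-HLH and E(spl)m7-HLH, repressors that Notch signalling turns on, were nearest to a member. The first had 1.26 in replicate 1, 0.638 in replicate 3 and no match in replicate 2. The second had 0.722 and 0.909 in replicates 1 and 2 and no match in replicate 3. Each of these peaks was thus missing from the full list of 1 replicate. Of 8 ETS factor genes, aop, which encodes the repressor Yan, was nearest to 2 members upstream of its start. Their relative signals were 1.09, 1.14 and 1.31 at 1534 bp and 0.742, 0.309 and 0.914 at 841 bp, and neither held CCGGAA.

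Housekeeping lists were counted in the same way. Of 92 cytosolic ribosomal protein genes 5 were nearest to a member (5.43%, beside 3.04% of all genes, not tested), the strongest being RpS15Aa with 1.29, 1.26 and 1.49 at 2622 bp. Of 73 mitochondrial ribosomal protein genes 1 was, mRpS5, and of 20 heat shock and chaperone genes 0 were.

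A start of a non-coding gene lay within 500 bp of 61 intergenic summits (12.0%), against 5.09% of all optimal peaks and 28 of 840 intronic peaks (3.33%). Long non-coding RNAs made up most, with 43 peaks (8.43%, against 2.43% of all optimal peaks). Antisense RNAs and small nucleolar RNAs had 5 peaks each, small nuclear RNAs 4, tRNAs 3, snoRNA host genes 3, pseudogenes 2 and microRNAs 1, and a peak near several starts counts under each type. All 3 host gene peaks were thus counted again among the 5 of small nucleolar RNAs. The peak at snoRNA:185 was also counted under tRNAs. Non-coding genes between protein-coding genes have more chance to lie near a member than those inside introns, so these shares were not tested. Annotated starts of transposable elements lay within 500 bp of 24 summits (4.71%, against 2.09%). Neither a non-coding start within 500 bp nor a non-coding gene over the summit was found at 422 peaks (82.7%).

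Summits near non-coding starts lay mostly upstream. The median position was -69 bp from the start, with quartiles of -223 and 142 bp, 43 of 61 summits were upstream (70.5%), and 19 were within 100 bp. Peaks near a non-coding start had a median pooled signal of 161, against 136 for the other members, and medians of relative signal of 0.993, 0.973 and 1.07 in the 3 replicates, against 0.815, 0.830 and 0.890. CCGGAA was present in 2 of the 61 (3.28%) and in 40 of the other 449 peaks (8.91%), and GGTGGCGC in 6 (9.84%) and 22 (4.90%). These differences within the class were not tested.

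**Figure D5:**
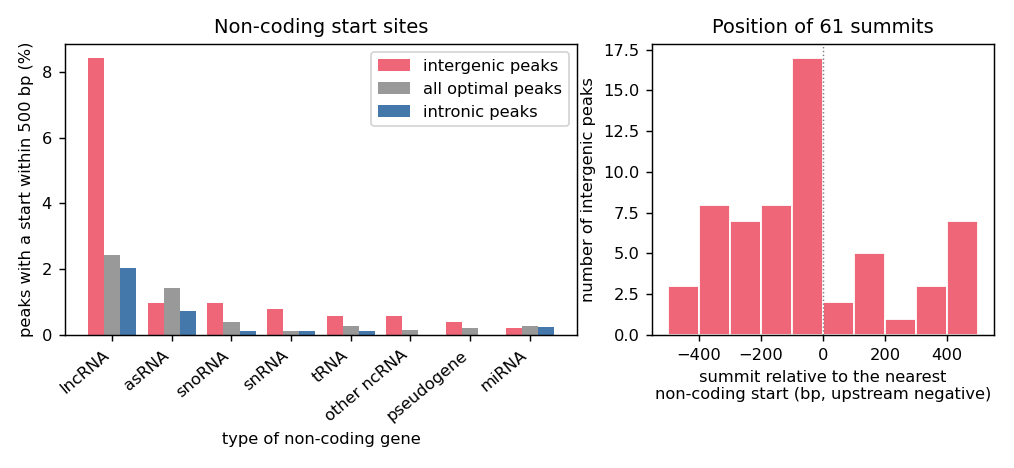
Left, share of peaks (vertical axis, %) with a start of each type of non-coding gene within 500 bp, for 510 intergenic, all optimal and 840 intronic peaks. Right, number of intergenic peaks by position of the summit relative to the nearest non-coding start in bp (upstream negative). Long non-coding RNAs are the highest bars at 8.43%, 2.43% and 2.02%, and 43 of 61 summits are upstream.

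The snoRNA host genes Uhg4, Uhg1 and Uhg3 had their summits 69, 66 and 90 bp upstream of the start. Relative signals were 27.4, 30.7 and 24.7 at Uhg4, 1.21, 1.43 and 1.11 at Uhg1, and 1.13, 1.27 and 0.779 at Uhg3. Host genes of this kind release small nucleolar RNAs, which guide modification of ribosomal RNA, from their introns. All 3 peaks were in the strongest sets of every replicate, though their signals spanned a wide range. At the second snoRNA peak by signal, 452 bp downstream of the start of snoRNA:Or-CD4, the values were 2.90, 3.07 and 2.42.

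Among long non-coding RNAs the strongest were lncRNA:CR31044, with the summit 106 bp upstream (3.75, 3.52 and 5.33), and lncRNA:CR44619, 445 bp upstream (3.27, 3.28 and 4.09). A few well-studied RNAs are named here after their values were seen. The summit at Hsromega, a heat-inducible nuclear RNA, was 11 bp upstream of the start (1.72, 1.87 and 1.45). roX2 and roX1, the RNAs of the dosage compensation complex on the male X chromosome, had summits 1 and 46 bp upstream, with 1.23, 1.23 and 1.53 at roX2 and 0.779, 0.780 and 0.940 at roX1. At flam, the flamenco cluster of transposon-silencing piRNAs, the summit was 215 bp upstream (0.757, 0.934 and 0.836). Only Hsromega and roX2 exceeded 1 in every replicate among these, and all 4 were in the strongest set of each replicate.

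Further non-coding types were represented by small numbers of peaks. At snRNA:7SKa, the RNA that holds the elongation factor P-TEFb inactive, the summit was 180 bp downstream of the start (1.27, 1.51 and 1.33). The spliceosomal snRNA:U2:34ABb had 0.429, 0.844 and 1.00. mir-34, the only microRNA, had 0.297, 0.595 and 1.23, a spread of 67.6% of its mean. The strongest tRNA peak, 310 bp downstream of the start of tRNA:Glu-TTC-1-5, had 0.550, 0.984 and 0.901. Its summit was nearer to snoRNA:185, 69 bp upstream of that start. The antisense RNA of highest signal, asRNA:CR45999, had 1.06, 1.05 and 1.65, and the pseudogene CR31032 2.76, 2.43 and 2.27. Of these only 7SKa, CR45999 and CR31032 were above 1 in all 3 replicates.

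Near-identical copies could draw reads to a wrong place, so each summit window was compared with the genome. A second copy at 90% identity over 90% of the window was found for 4 of 510 peaks, near ed, kek4, Pli and nrv3, and for 0 of the 25 strongest. The kek4 and Pli windows lie at copies of the U2 and U1 small nuclear RNA genes, and their signals are uncertain. Only 3 members lay inside an annotated transposable element. CCGGAA occurred more than once in 4 windows, among them those near sev, Nepl4 and CG42758, with pooled signals of 263, 115 and 113.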

How the data were processed

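ChIP-seq of Ets97D-eGFP was analysed from the dm6 region lists that the authors deposited: 24391, 28843 and 29122 regions for replicates 1, 2 and 3, 27625 from all replicates, and an optimal set of 5595 that passed their reproducibility test (IDR). The signal of each region is the authors' deposited value, computed for ChIP over control, per the file headers, on an unstated scale. The aligner, the peak caller and the IDR threshold were not given in the sources used here. No read counts are listed, so depth is unknown. Wilson intervals cover counting error over peaks only. Control libraries, signal tracks and the dm3 lists were not analysed here.

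Summits (start plus offset, 1-based) were set against protein-coding transcripts of Ensembl release 115 on Release 6. Replicates were matched to the strongest region within 150 bp. A peak with no match in any one of the replicates was given no mean across replicates. Words were sought on both strands. Tests over peaks treat peaks, not embryos, as units, and neighbouring peaks are not independent. Each replicate has its own biosample record in the labels. Named peaks are the 25 strongest, the top 2 of each non-coding type, the 3 nearest to each side of the limit, the 3 farthest, peaks with several CCGGAA and up to 4 genes a list; a few of these are not reported here. Members, lists and words were chosen with earlier results of these data known. Word tests were checked on simulated windows. Tools were BLAST 2.17.0, matplotlib 3.10.9, pandas 2.3.3, SciPy 1.17.1, NumPy 2.4.6 and Python 3.11.15. Alternatives varied the limit, windows, flank, matching distance, replicates and signal.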

Additional observations from a re-analysis of the deposited data

How the results depend on the processing

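Of 141 alternative values, 104 kept their direction and side of the threshold, or, for shares and differences, stayed within the interval or SD of the reported value, or, for counts, stayed within 1.5 times of it. The number of intergenic peaks was 720 with a limit of 250 bp, 409 with 1000 bp, 422 with all annotated transcripts and 510 with RefSeq mRNAs, an alternative chosen after seeing the data. It was 194 among the 50% of peaks of highest signal. Presence in all 3 replicates was 46.1% with summits within 50 bp, 96.5% in the full lists and 99.0% among the 50% of highest signal. Leaving out 1 replicate, presence in the other two was 63.1% to 72.5%, since fewer sets had to hold the peak. The intergenic minus intronic signal stayed above 0, from 0.0286 to 0.0466. The non-coding share was 7.65% within 250 bp, 18.2% within 1000 bp and 15.5% among the 50% of highest signal.

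Words called at the summit fell from 4 to 2 with a window of 25 bp to either side. They numbered 3 among the 50% of highest signal and 5 with 100 bp to either side or a 1000 bp limit. With a flank 1000 bp away, or among the 370 peaks in the strongest sets of replicates 1 and 3, they numbered 6. Words called against intronic peaks fell from 2 to 0 with 25 bp to either side. They fell to 1 with a 1000 bp limit or with peaks of all 3 replicates, and numbered 3 with 100 bp to either side. At 25 bp the CCGGAAG odds ratio against intronic peaks turned below 1 (0.822 in value, adjusted p 0.979); it was not called in either case. Called words of 6 bases numbered 0 at 25 bp and 40 at 100 bp to either side, 7 with the 1000 bp limit, 3 among the 50% of highest signal, 6 with peaks of all 3 replicates, 23 with the flank towards higher coordinates and 24 with a flank 1000 bp away. Keeping only peaks in the strongest sets of a given pair of replicates (345, 370 or 322 peaks) gave 6 to 8. The pooled peaks and summits in these tests still drew on all replicates. Narrow windows and fewer peaks hold fewer words, and no other cause was tested. TGCATAC passed against the flank with 100 bp to either side, a 1000 bp limit or a flank 1000 bp away (adjusted p 0.0216, 0.0407 and 0.0139, exact McNemar test). It also passed among the 370 peaks in the strongest sets of replicates 1 and 3 (adjusted p 0.0236, same test). No paired analysis was possible because replicate numbers pair samples only across groups, and there is 1 group.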
